A study of Homo sapiens with 60 samples.

Results

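The genes described here are 35 human genes of the endoplasmic reticulum (ER) chaperone system and of the unfolded protein response, taken by symbol from a table of 60675 genes. All 35 have a row and all passed the filter on low counts, which left 18396 genes for testing. They were measured by RNA sequencing in A549, an established human lung carcinoma cell line, after 24 h with ethanol extracts of Korean herbal medicines. Single herbs and mixed formulas, 8 extracts in all, were each given at 3 doses beside a vehicle control, in 60 libraries.

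The doses of Polygalae Radix were 15.2, 76 and 380 µg/mL, with 2 libraries each. Those of Aucklandiae Radix, also with 2 libraries each, were 14.8, 74 and 370 µg/mL. The submitters' design text sets the high dose at the IC20 of an extract where that is below 500 µg/mL. The remaining extracts were used at 20, 100 and 500 µg/mL. Each dose had 3 libraries for the herbs Saposhnikoviae Radix and Menthae Herba and for the formulas Guibi-tang and Saengmaek-san, 2 for Soyo-san and 1 for Okbyeongpung-san. The 3 vehicle libraries received DMSO, at 0.1% in the sample labels; the design text gives another percentage. No label says whether libraries of 1 group came from separate cultures, so a p-value here reflects library-to-library spread only, which may be technical. All libraries come from this 1 cell line.

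Proteins that enter the secretory pathway fold inside the ER, where the Hsp70 chaperone BiP and its cofactors hold unfolded chains, protein disulfide isomerases join cysteines, and the lectins calreticulin and calnexin retain glycoproteins until they are folded. Chains that fail are moved back to the cytosol and degraded by the proteasome (ER-associated degradation). When unfolded protein builds up, the sensors IRE1, ATF6 and PERK signal to the nucleus: IRE1 splices the mRNA of the transcription factor XBP1, ATF6 is cut to release a transcription factor, and PERK phosphorylates eIF2α, which lowers translation while ATF4 is made. ATF6 and spliced XBP1 act on chaperone promoters through the ER stress response element. The counts used here are per gene and cannot show XBP1 splicing, ATF6 cleavage or PERK activity.

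Because that element is more frequent in the members' promoters than in all promoters, 4 promoters are shown that carry it or the related ERSE-II. They were picked because their genes went different ways in the results. The windows run from 250 bases before to 50 bases after the start site (RefSeq, GRCh38.p14) and are written 5′ to 3′ on the gene's strand, with motif matches in capitals. HSPA5 lies at chr9:125241294-125241593 on the minus strand and encodes BiP. CALR lies at chr19:12938359-12938658 on the plus strand and encodes calreticulin. HERPUD1 lies at chr16:56931892-56932191 on the plus strand and encodes a membrane protein of the degradation complex. XBP1 lies at chr22:28800520-28800819 on the minus strand.
HSPA5: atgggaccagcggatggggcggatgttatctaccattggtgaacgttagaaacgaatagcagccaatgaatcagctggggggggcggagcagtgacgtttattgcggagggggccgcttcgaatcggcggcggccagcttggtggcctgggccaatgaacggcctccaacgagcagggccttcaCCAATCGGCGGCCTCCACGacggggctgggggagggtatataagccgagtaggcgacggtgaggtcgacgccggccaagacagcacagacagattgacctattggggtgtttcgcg
CALR: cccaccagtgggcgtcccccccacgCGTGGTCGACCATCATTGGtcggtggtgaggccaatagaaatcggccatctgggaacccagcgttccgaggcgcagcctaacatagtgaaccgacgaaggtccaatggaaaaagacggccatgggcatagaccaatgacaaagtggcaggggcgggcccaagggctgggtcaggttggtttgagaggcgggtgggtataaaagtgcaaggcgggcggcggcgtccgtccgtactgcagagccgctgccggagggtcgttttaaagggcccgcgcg
HERPUD1: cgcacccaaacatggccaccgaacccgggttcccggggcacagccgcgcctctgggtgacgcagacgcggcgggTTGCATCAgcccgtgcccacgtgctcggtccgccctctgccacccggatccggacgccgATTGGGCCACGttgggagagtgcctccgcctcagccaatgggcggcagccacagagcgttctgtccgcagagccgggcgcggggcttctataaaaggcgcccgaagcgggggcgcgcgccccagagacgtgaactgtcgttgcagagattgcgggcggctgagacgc
XBP1: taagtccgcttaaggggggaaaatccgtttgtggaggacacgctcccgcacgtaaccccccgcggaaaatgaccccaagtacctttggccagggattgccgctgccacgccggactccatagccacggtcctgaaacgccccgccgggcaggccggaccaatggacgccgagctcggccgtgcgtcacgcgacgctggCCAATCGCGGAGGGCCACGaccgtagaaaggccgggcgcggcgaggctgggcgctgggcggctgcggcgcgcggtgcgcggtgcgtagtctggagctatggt

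The capitals mark the ER stress response element ERSE in HSPA5, CALR and XBP1. In HERPUD1 they mark the amino acid response element CARE first and ERSE-II after it. ERSE was searched as CCAAT, any 9 bases and CCACG, and ERSE-II as ATTGG, any 1 base and CCACG, all motifs on either strand. Only exact matches were counted, so a window without a match may hold a variant. The counts over all genes include the members. ERSE was found in 8 of the 32 members with a window (HSPA5, HSP90B1, CRELD2, PDIA6, ERO1B, CALR, CANX and XBP1), or 25.0%, against 25 of 27305 genes with a window (0.0916%). ERSE-II was found in 3 members (HYOU1, SDF2L1 and HERPUD1), or 9.38%, against 19 genes (0.0696%). The core of the XBP1 element UPRE, TGACGTGG, was in HYOU1 and DNAJC10 and in 0.927% of genes; in HYOU1 it overlaps 1 of 2 ERSE-II matches. CARE, TTGCATCA, was in HERPUD1 alone among members and in 1.08% of genes. The ERSE letters hold a CCAAT box, which was in 27 members and in 39.7% of genes. PDIA3, DERL1 and DERL3 had no window.

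Levels are given as CPM, a gene's reads relative to all reads of the library, scaled between libraries by TMM. Per kilobase of annotated exon, HSP90B1 (the ER Hsp90, GRP94) was highest in vehicle cells at 192.2 CPM per kb, followed by CALR at 184.2, HSPA5 at 164.3, CANX (calnexin) at 162 and P4HB (the isomerase PDI) at 122.9. The vehicle ranges of HSPA5 and CANX overlapped on this scale. ERN1, which encodes IRE1, was second lowest at 1.662 CPM per kb. DERL3, a derlin of secretory tissues, was near 0 at 0.04528 CPM per kb, and its fold changes are read no further. HSPA5, PDIA3 and XBP1 each have 1 or 2 processed pseudogenes in the annotation, between which shared reads could be split. The counts of SYVN1 overlap the gene FAU, and other members overlap small RNA genes, pseudogenes or uncharacterised transcripts.

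Total counts were 17113924 to 33363642 per library. The epithelial markers KRT8, KRT18, KRT19, EPCAM and CDH1 were detected in every library. The leukocyte marker PTPRC was at 0 in 55 of 60 libraries, and the endothelial and fibroblast markers PECAM1, CDH5 and COL1A2 stayed at or below 0.254 CPM, while COL1A1 ranged from 11 to 39.8 CPM. The libraries fall into 2 classes by an uncharacterised transcript, ENSG00000282955: 38 libraries had at most 3.45 CPM (class 1) and 22 had 19.36 to 53.29 CPM (class 2), and no label gives the reason. The vehicle, Soyo-san and Okbyeongpung-san libraries were all of class 2, and the Aucklandiae Radix and Menthae Herba libraries all of class 1. For Saengmaek-san and Guibi-tang the class 2 libraries were those of replicate 3 and Saengmaek-san high-dose replicate 1. Class and replicate number are thus partly mixed there. Fitted within groups, class 2 was higher than class 1 for 13 members and lower for 13, by -0.42 (SDF2L1) to 0.38 (SYVN1) on the log2 scale; over all genes 47.7% differed (24.9% higher and 22.8% lower). Mitochondrial genes took 4.66% to 7.27% of the counts in class 1 and 7.17% to 14.4% in class 2, with 8.66% to 8.9% in vehicle; their part in the comparisons with vehicle was not tested. Each comparison with vehicle is given also with class as a term. Shares of all genes called by comparison come from the main edgeR fit alone, so counts of members in other fits stand without a share. Vehicle and each pair of extracts also carry separate library series numbers, so that the comparison with vehicle cannot be told apart from that series; comparisons between doses lie within 1 series.

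Against the low dose, the high dose of Polygalae Radix, Menthae Herba and Aucklandiae Radix changed members, while for the other 4 extracts tested no member passed (edgeR's quasi-likelihood test, Benjamini-Hochberg adjusted over all genes tested, adjusted p under 0.05). For Polygalae Radix 27 of 35 members passed, 4 higher and 23 lower, against 56.9% of all genes (27.9% higher and 29.1% lower). The members' median log2 fold change was -0.67 and that of all genes 0.04. For Menthae Herba 16 passed, 4 higher and 12 lower, against 15.3% of all genes (5.95% higher and 9.37% lower). For Aucklandiae Radix 9 passed, all lower, against 18.3% of all genes (9.01% higher and 9.25% lower).

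**Figure D1:**
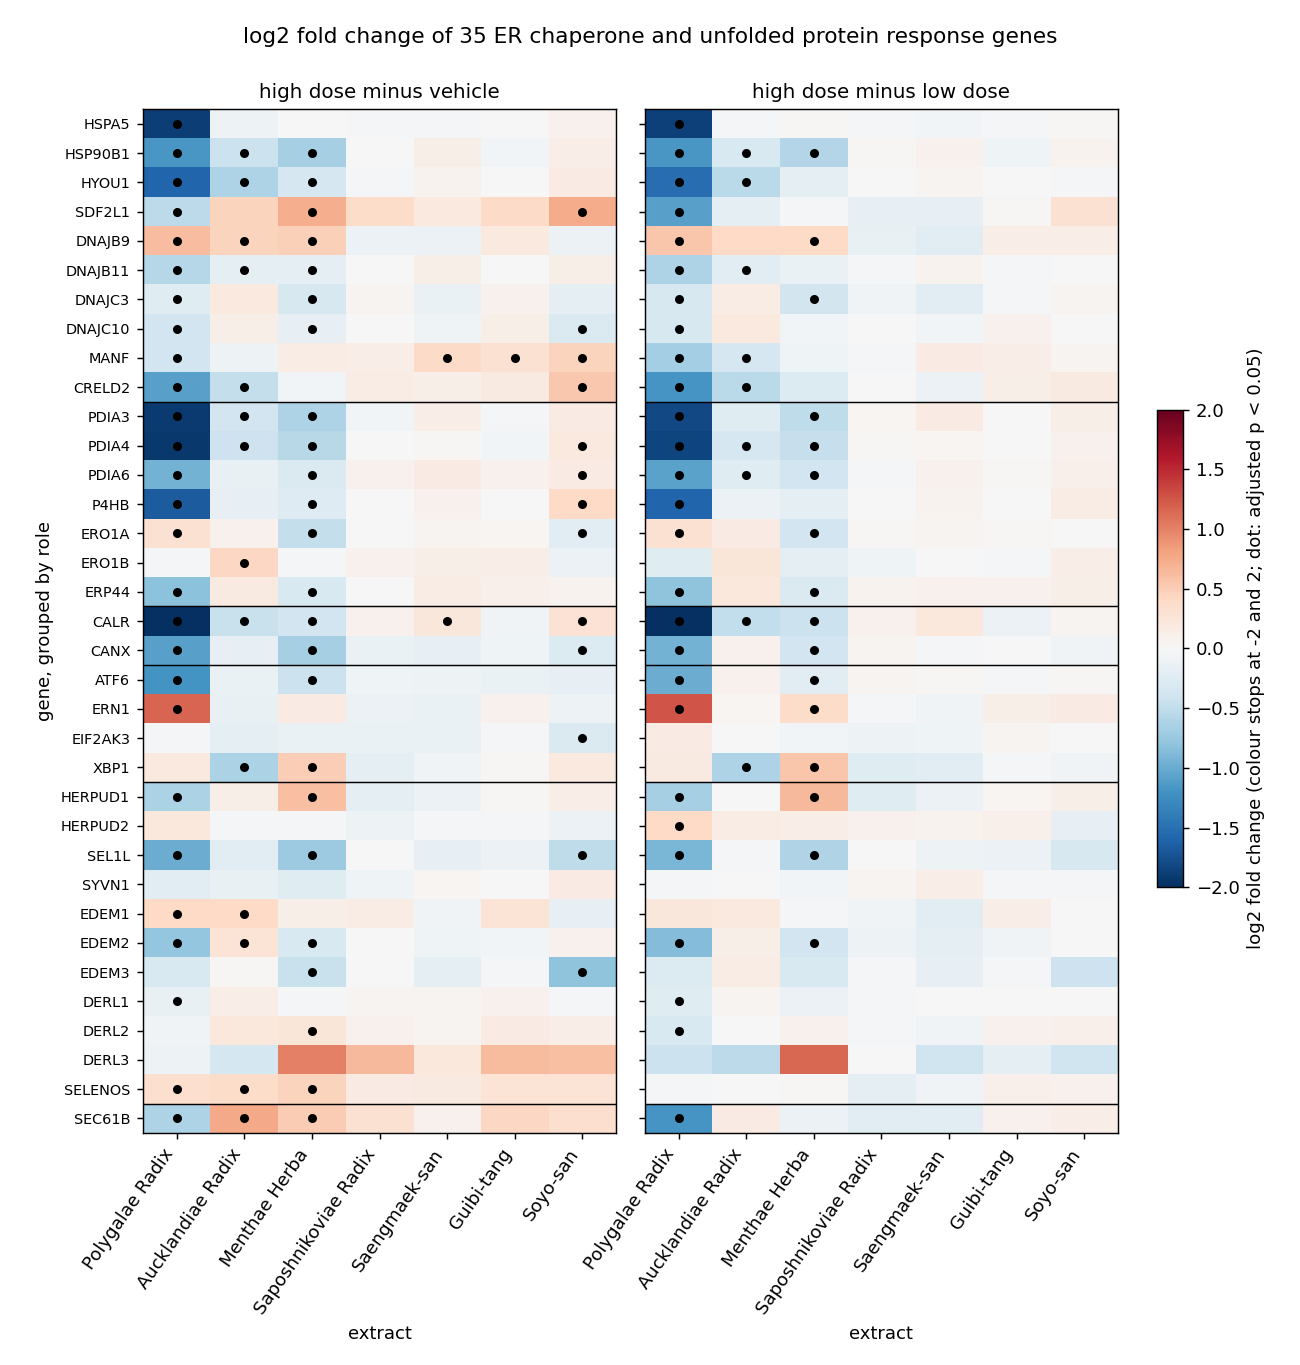
Log2 fold change of the 35 genes (rows, grouped by role) at the high dose of 7 extracts (columns) against vehicle (left panel) and against the low dose (right panel); dots mark an adjusted p under 0.05. The Polygalae Radix columns hold the darkest cells, with CALR at -2.51 against the low dose, and the right panel has dots in the first 3 columns alone.

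Polygalae Radix lowered BiP and most of its partners. HSPA5 stood at 637.9, 641.6 and 646.6 CPM in vehicle, 625.5 and 650.3 CPM at the low dose, 427.9 and 482.8 CPM at the medium dose, and 173.4 and 174.5 CPM at the high dose. The high-dose libraries, 1 of each class, were almost equal, and the 3 doses did not overlap, while the low dose lay around the vehicle values. HSPA5 at the high dose was 0.273 of its low-dose level (log2 fold change -1.87, SE 0.07, adjusted p = 1.65e-24).

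Of the 10 genes of BiP and its partners, 9 fell at the high dose against the low dose and 1 rose. Of all genes 29.1% fell and 27.9% rose. HSP90B1 had 419.3 and 383.5 CPM at the high dose, against 887 and 905.1 CPM at the low dose (-1.16, SE 0.08). HYOU1, the nucleotide exchange factor GRP170, fell by 1.53 on the log2 scale (SE 0.09). CRELD2, a secreted stress-induced protein, fell by 1.18 (SE 0.14), and MANF, a small protein that binds BiP, by 0.68 (SE 0.1). The fold changes of 3 J-domain partners of BiP were smaller: DNAJB11 changed by -0.62, DNAJC10 by -0.32 and DNAJC3 by -0.32. DNAJC3 lost its call without high-dose replicate 2 or low-dose replicate 3 (adjusted p up to 0.389). SDF2L1, a partner of DNAJB11 in the BiP complex, had 5.288 and 9.51 CPM at the high dose, against 15.9 and 16.23 CPM at the low dose (-1.09, SE 0.23).

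DNAJB9, the J-protein ERdj4 that is a target of XBP1, was the partner that rose. It had 13.78 and 17.09 CPM at the high dose, against 10.37 and 10.82 CPM at the low dose (log2 fold change 0.55, SE 0.16, adjusted p = 0.00269). Without high-dose replicate 3, a library of class 1, the difference was 0.35 and its adjusted p 0.125.

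Among the disulfide enzymes the isomerases fell together with Polygalae Radix. PDIA4 (ERp72) had 79.92 and 68.37 CPM at the high dose, against 257.3 and 270 CPM at the low dose (-1.83, SE 0.08). PDIA3 (ERp57), which works with the lectin chaperones, changed by -1.81 (SE 0.1), P4HB by -1.59 (SE 0.09) and PDIA6 by -1.07 (SE 0.07). ERP44, which returns escaped ER enzymes from the Golgi, changed by -0.81 (SE 0.11). The oxidase ERO1A, which supplies disulfides to PDI, went the other way, with 160 and 151.9 CPM at the high dose, against 124.6 and 128.9 CPM at the low dose (0.3, SE 0.09). Its paralogue ERO1B differed by -0.25 (SE 0.15) and did not pass. In all 5 of these 7 enzymes fell and 1 rose, against 29.1% and 27.9% of all genes.

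The lowest fold change of any member was that of CALR. It had 94.97 and 86.19 CPM at the high dose, against 534.5 and 495.5 CPM at the low dose, with 401 and 396.1 CPM at the medium dose between them. The log2 fold change of high against low was -2.51 (SE 0.09, adjusted p = 6.95e-27). CANX, its membrane-bound counterpart, was reduced to 508 and 441.3 CPM, against 913.5 and 906.4 CPM at the low dose (-0.94, SE 0.08).

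The sensors did not move together under Polygalae Radix. ATF6 had 22.47 and 22.75 CPM at the high dose, against 43.8 and 46.75 CPM at the low dose (-1, SE 0.08). ERN1 had 39 and 42.23 CPM at the high dose, against 16.8 and 17.23 CPM at the low dose (1.26, SE 0.12, adjusted p = 1.23e-12), the largest rise of any member. EIF2AK3, which encodes PERK, differed by 0.16 (SE 0.1, adjusted p = 0.176) and XBP1 by 0.18 (SE 0.12, adjusted p = 0.2). XBP1 had 71.38 and 60.09 CPM at the high dose, and the lower value lies inside the low-dose range of 53.86 to 62.17 CPM.

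Of the 11 degradation genes, 5 fell and 1 rose. Of all genes 56.9% were called, 29.1% lower and 27.9% higher, so the share called in this role was near that of all genes. SEL1L, the adaptor of the ubiquitin ligase complex, changed by -0.92 (SE 0.11), and EDEM2, a protein that acts in mannose trimming of misfolded glycoproteins, by -0.87 (SE 0.11). HERPUD1 had 23.34 and 26.07 CPM at the high dose, against 37.75 and 41.14 CPM at the low dose (-0.67, SE 0.11). DERL1 and DERL2, membrane proteins of the export channel, changed by -0.24 and -0.31; DERL2 lost its call without high-dose replicate 2 or low-dose replicate 3 (adjusted p up to 0.255). HERPUD2, a relative of HERPUD1, rose by 0.4 (SE 0.1), and its adjusted p was 0.0586 without high-dose replicate 2. The ligase SYVN1 (-0.02), EDEM1 (0.22), EDEM3 (-0.27) and SELENOS (-0.04), a selenoprotein of the same complexes, did not pass. SYVN1 had 49.57 and 27.47 CPM at the high dose, on either side of its low-dose values of 37.33 and 39.93 CPM.

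SEC61B, a subunit of the translocation channel, had 17.74 and 35.02 CPM at the high dose, against 62.73 and 58.63 CPM at the low dose. The log2 fold change was -1.18 (SE 0.24); without high-dose replicate 2 it was -0.79, and without high-dose replicate 3 it was -1.8. The lower library is of class 2, and class 2 differed from class 1 by -0.38 (log2) for this gene within groups. These high-dose libraries are themselves part of that estimate. With class as a term, 28 members passed in this comparison (5 higher and 23 lower), among them all 27 called without it in the same direction. Within class 1 the high dose has 1 library, whose spread is taken from the other groups, so this count of 27 rests on no replicate of that dose (5 higher and 22 lower).

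**Figure D2:**
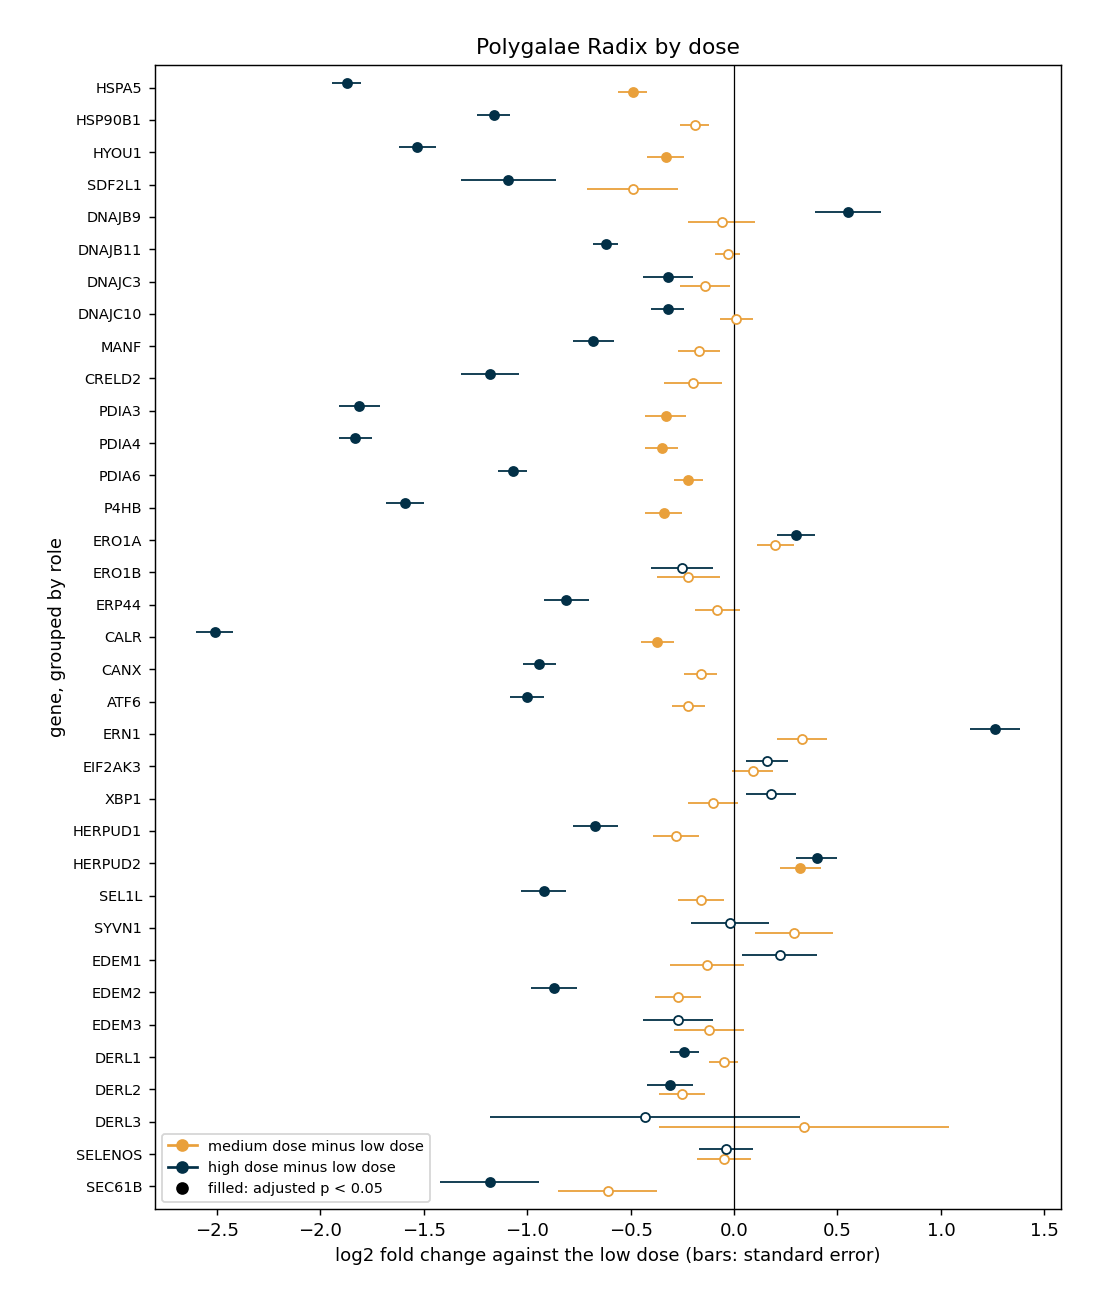
Log2 fold change of each gene (rows) at the medium and the high dose of Polygalae Radix against its low dose, with standard errors; filled points have an adjusted p under 0.05. HSPA5 was at -0.49 at the medium dose and -1.87 at the high dose, and ERN1 at 0.33 and 1.26.

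The medium dose of Polygalae Radix already changed 8 members, 1 higher and 7 lower, against 11.7% of all genes (4.9% higher and 6.77% lower). HSPA5 differed by -0.49 (SE 0.07), CALR by -0.37 (SE 0.08), PDIA4 by -0.35 (SE 0.08), P4HB by -0.34 (SE 0.09), HYOU1 by -0.33 (SE 0.09), PDIA3 by -0.33 (SE 0.1) and PDIA6 by -0.22 (SE 0.07). HERPUD2 rose by 0.32 (SE 0.1); with class as a term its adjusted p was 0.0534. HSPA5, PDIA4 and CALR kept their calls with each library left out in turn, while the other 5 lost theirs in 2 or 3 of 4 such refits. The count was 4 without low-dose replicate 3 and 14 without medium-dose replicate 3.

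The summed level of the 5 epithelial markers differed between the doses as well. It was 6470 to 6530 CPM at the low dose of Polygalae Radix, 3700 to 3910 CPM at the medium dose and 850 to 986 CPM at the high dose. The sum of the other cell types' markers was 11.1 to 16.6 CPM at the high dose and 24.5 to 31.4 CPM at the low dose, nearly all of it COL1A1. The high-dose libraries had 17113924 to 23298803 counts and the low-dose libraries 29105179 to 29715936, and mitochondrial genes took 6.18% to 14.4% of the counts at the high dose, against 5.58% to 6.84% at the low dose. The part of these in the members' changes was not tested. In bulk RNA, fewer cells making a transcript and less transcript per cell cannot be told apart.

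**Figure D3:**
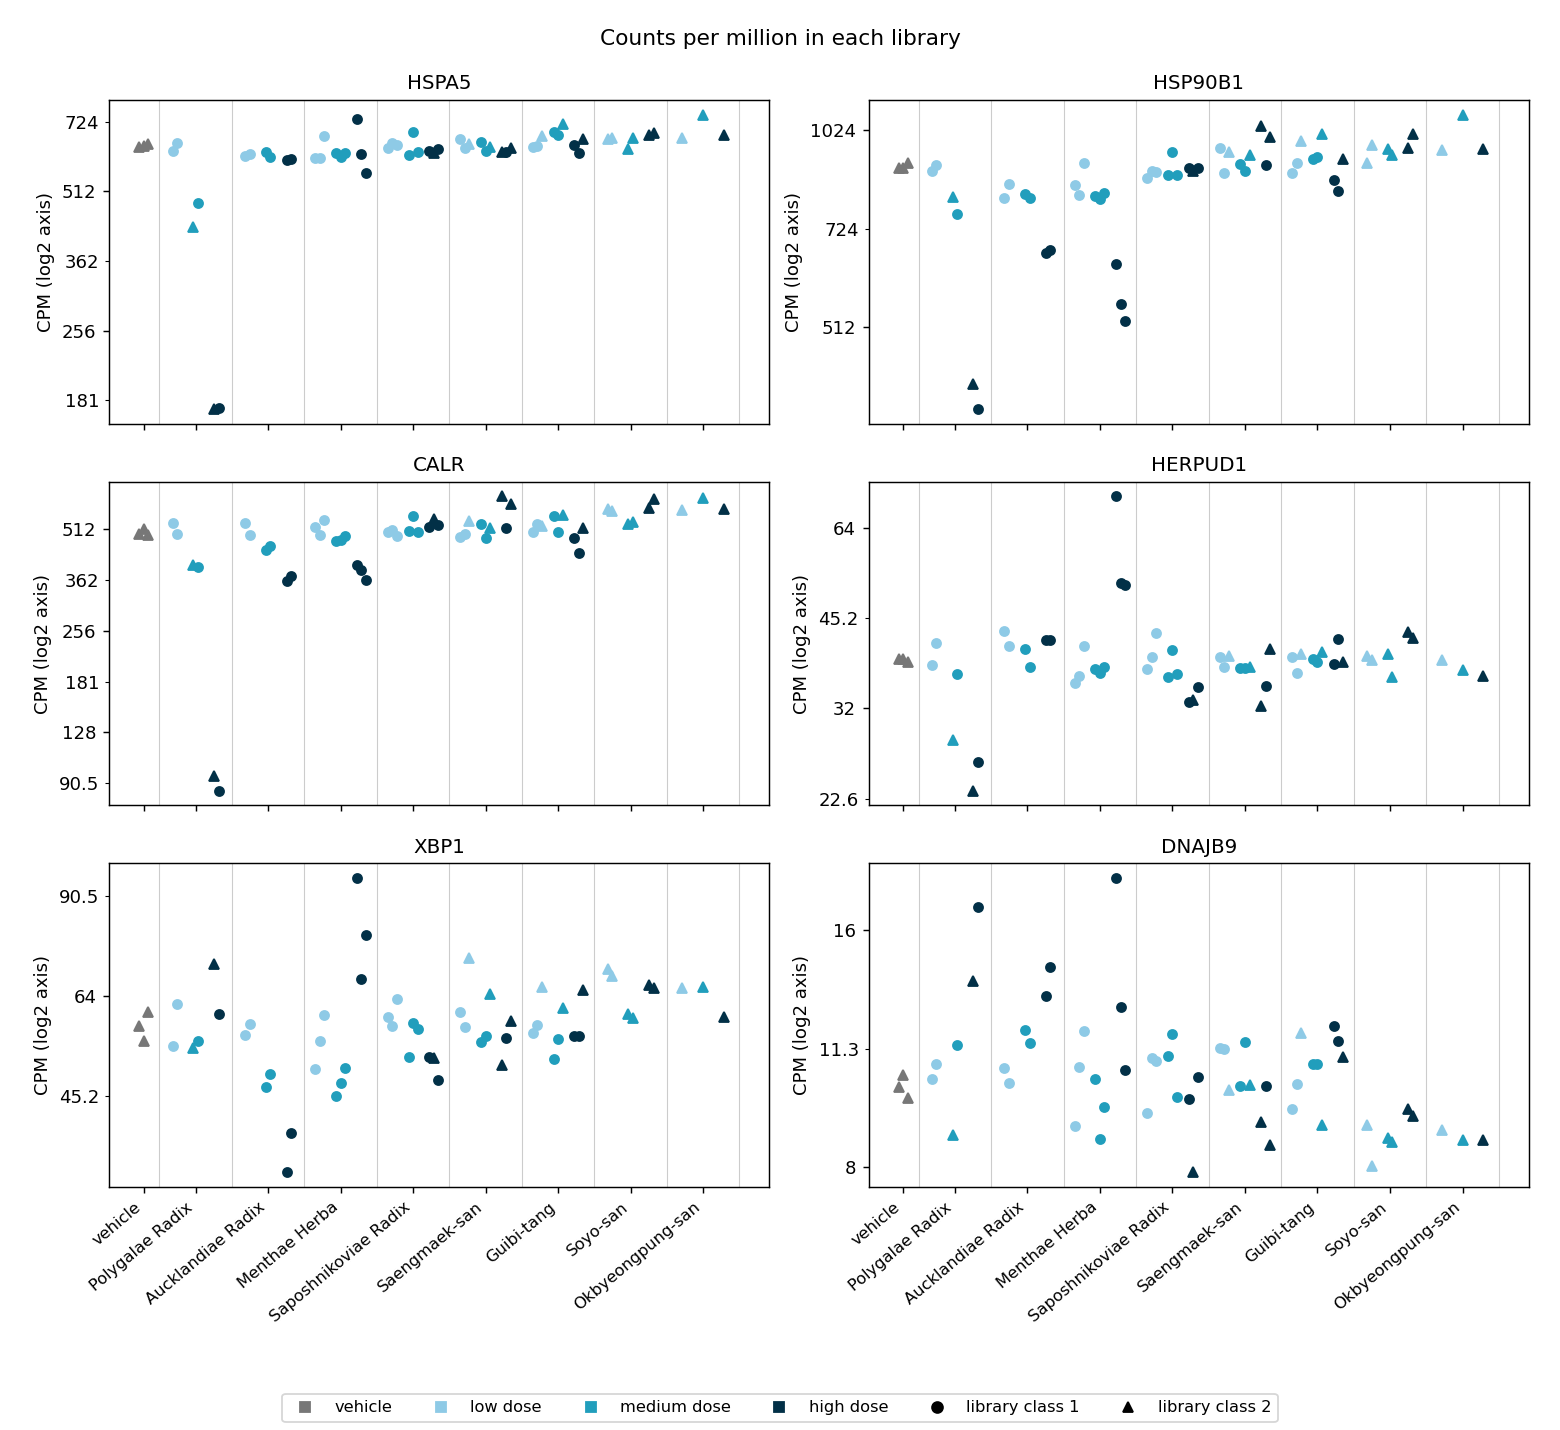
CPM of 6 genes in each of the 60 libraries, on a log2 axis, with vehicle at the left and the doses of each extract from low to high; circles are class 1 libraries and triangles class 2. HSPA5 is lowest at the high dose of Polygalae Radix, at 173.4 and 174.5 CPM, with its medium dose next, while HERPUD1 is highest at the high dose of Menthae Herba, at 51.37 to 72.17 CPM.

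Menthae Herba split the group: 2 genes tied to the unfolded protein response, XBP1 and HERPUD1, rose at the high dose while folding enzymes fell and BiP did not pass the test. HERPUD1 had 72.17, 51.74 and 51.37 CPM at the high dose, against 35.21, 36.19 and 40.62 CPM at the low dose. The libraries of these doses did not overlap, and the log2 fold change was 0.65 (SE 0.09, adjusted p = 1.71e-07). XBP1 had 96.13, 67.97 and 79.02 CPM at the high dose, against 49.8, 54.73 and 59.97 CPM at the low dose (0.56, SE 0.1, adjusted p = 2.03e-05), again without overlap. ERN1 rose by 0.36 (SE 0.1), with 24.54, 19.35 and 17.03 CPM at the high dose, against 17.3, 16.45 and 13.81 CPM at the low dose; the ranges overlapped, and the call was lost without high-dose replicate 1 or low-dose replicate 3.

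DNAJB9 had 18.61, 12.78 and 10.62 CPM at the high dose of Menthae Herba, against 9.024, 10.72 and 11.93 CPM at the low dose (0.4, SE 0.13, adjusted p = 0.0255). The ranges overlapped. Without high-dose replicate 1, the highest library for all 4 of these genes, DNAJB9 differed by 0.14 (adjusted p = 0.551), and it also lost its call without low-dose replicate 1 or 2. HERPUD1 and XBP1 kept theirs with each library left out in turn, at 0.46 to 0.73 and 0.42 to 0.67.

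HSPA5 itself had 734.3, 616.5 and 561.4 CPM at the high dose of Menthae Herba, against 605.4, 603.7 and 674.3 CPM at the low dose. The difference was 0.02 (SE 0.06), with a 95% interval of -0.1 to 0.14. The high-dose libraries lay on both sides of the low-dose range. Among its partners HSP90B1 fell, with 639, 555.3 and 522.4 CPM at the high dose, against 845.3, 814.9 and 911.3 CPM at the low dose (-0.58, SE 0.06, adjusted p = 4.68e-10). DNAJC3, the BiP cochaperone P58IPK, also fell, by 0.36 (SE 0.1), a call lost without high-dose replicate 3 or low-dose replicate 2. SDF2L1 (-0.03), MANF (-0.09), HYOU1 (-0.18), CRELD2 (-0.28), DNAJB11 (-0.13) and DNAJC10 (-0.05) did not pass in this fit. In a fit with replicate number as a block, and among class 1 libraries alone, HYOU1, DNAJB11 and CRELD2 were called lower. With class as a term HYOU1 and DNAJB11 were called lower, and DNAJB11 also by the DESeq2 Wald test.

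Menthae Herba lowered 5 of the 7 disulfide enzymes and both lectin chaperones, while 9.37% of all genes were lower. PDIA3 had 228.7, 188.6 and 195.7 CPM at the high dose, against 301.6, 278.2 and 291.5 CPM at the low dose (-0.51, SE 0.08). PDIA4 changed by -0.46, PDIA6 by -0.38 and ERO1A by -0.38, and ERP44 by -0.29, the last with its call lost in 3 of 6 refits that left out 1 library. CALR had 400.5, 386.8 and 362.9 CPM at the high dose, against 518, 490.7 and 544.3 CPM at the low dose (-0.43, SE 0.07), and CANX changed by -0.39 (SE 0.06). P4HB (-0.19) and ERO1B (-0.19) did not pass in this fit. P4HB was called lower with the replicate block, with class as a term and among class 1 libraries alone.

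The remaining calls for Menthae Herba were SEL1L, with 99.02, 82.73 and 75.39 CPM at the high dose, against 124.7, 139.4 and 126.1 CPM at the low dose (-0.6, SE 0.09), EDEM2 (-0.38, SE 0.09) and ATF6 (-0.22, SE 0.06). ATF6 lost its call without high-dose replicate 3 (adjusted p = 0.135). EIF2AK3 differed by -0.06 and SEC61B by -0.12, neither past the threshold. EDEM3 (-0.3) did not pass in this fit and was called lower with the replicate block, with class as a term and among class 1 libraries alone. The count of members was 21 with the replicate block (4 higher and 17 lower) and 20 with class as a term (4 higher and 16 lower). Among class 1 libraries it was 21 (4 higher and 17 lower). No degradation gene other than HERPUD1 rose, and SEL1L, which stands in the same membrane complex, went the opposite way. The epithelial marker sum was 4140 to 4430 CPM at the high dose and 6170 to 7060 CPM at the low dose, while the other markers' sum was 31.8 to 32.4 CPM and 28.5 to 32.1 CPM; their part in the result was not tested. All libraries of this comparison are of class 1.

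At the medium dose of Menthae Herba no member passed in edgeR, against 0.169% of all genes; 2 members had an unadjusted p under 0.05, and DESeq2 called 0. XBP1 had 45.31, 47.41 and 49.95 CPM at this dose and HERPUD1 37.27, 36.6 and 37.54 CPM, both below every high-dose library.

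Saposhnikoviae Radix carries the same library series number as Menthae Herba and was given at the same doses. Unlike the Menthae Herba libraries, all of class 1, its high-dose replicate 2 is of class 2. At its high dose HERPUD1 had 32.79, 33.05 and 34.75 CPM, against 37.28, 39.01 and 42.72 CPM at the low dose (-0.24, SE 0.09), and XBP1 had 51.83, 51.73 and 47.94 CPM, against 59.52, 57.63 and 63.25 CPM (-0.25, SE 0.1). Neither passed after adjustment, although the libraries of the 2 doses did not overlap in either gene. No member passed in edgeR, against 0.0707% of all genes; 2 members had an unadjusted p under 0.05, and DESeq2 called 0. HSPA5 differed by -0.04 (95% interval -0.16 to 0.08), HSP90B1 by 0.02, DNAJB9 by -0.15 and SDF2L1 by -0.17.

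The difference between these changes, (high minus low) of Menthae Herba minus (high minus low) of Saposhnikoviae Radix, passed for 11 members, 2 positive and 9 negative, against 6.29% of all genes (1.83% and 4.47%). HERPUD1 differed by 0.89 (SE 0.12, adjusted p = 9.97e-07) and XBP1 by 0.81 (SE 0.14, adjusted p = 3.35e-05). The negative differences were those of SEL1L (-0.61), HSP90B1 (-0.6), PDIA3 (-0.55), CALR (-0.52), PDIA4 (-0.49), CANX (-0.45), ERO1A (-0.4), PDIA6 (-0.35) and ATF6 (-0.29). The difference for ATF6 lost its call in 9 of 12 refits that left out 1 library, and that for ERO1A without Menthae Herba high-dose replicate 3 (adjusted p = 0.0516); the other 9 kept theirs. For DNAJB9 the difference was 0.56 (SE 0.18, adjusted p = 0.0633) and for ERN1 0.38 (SE 0.14, adjusted p = 0.097). HSPA5 differed by 0.06, with a 95% interval of -0.1 to 0.23.

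**Figure D4:**
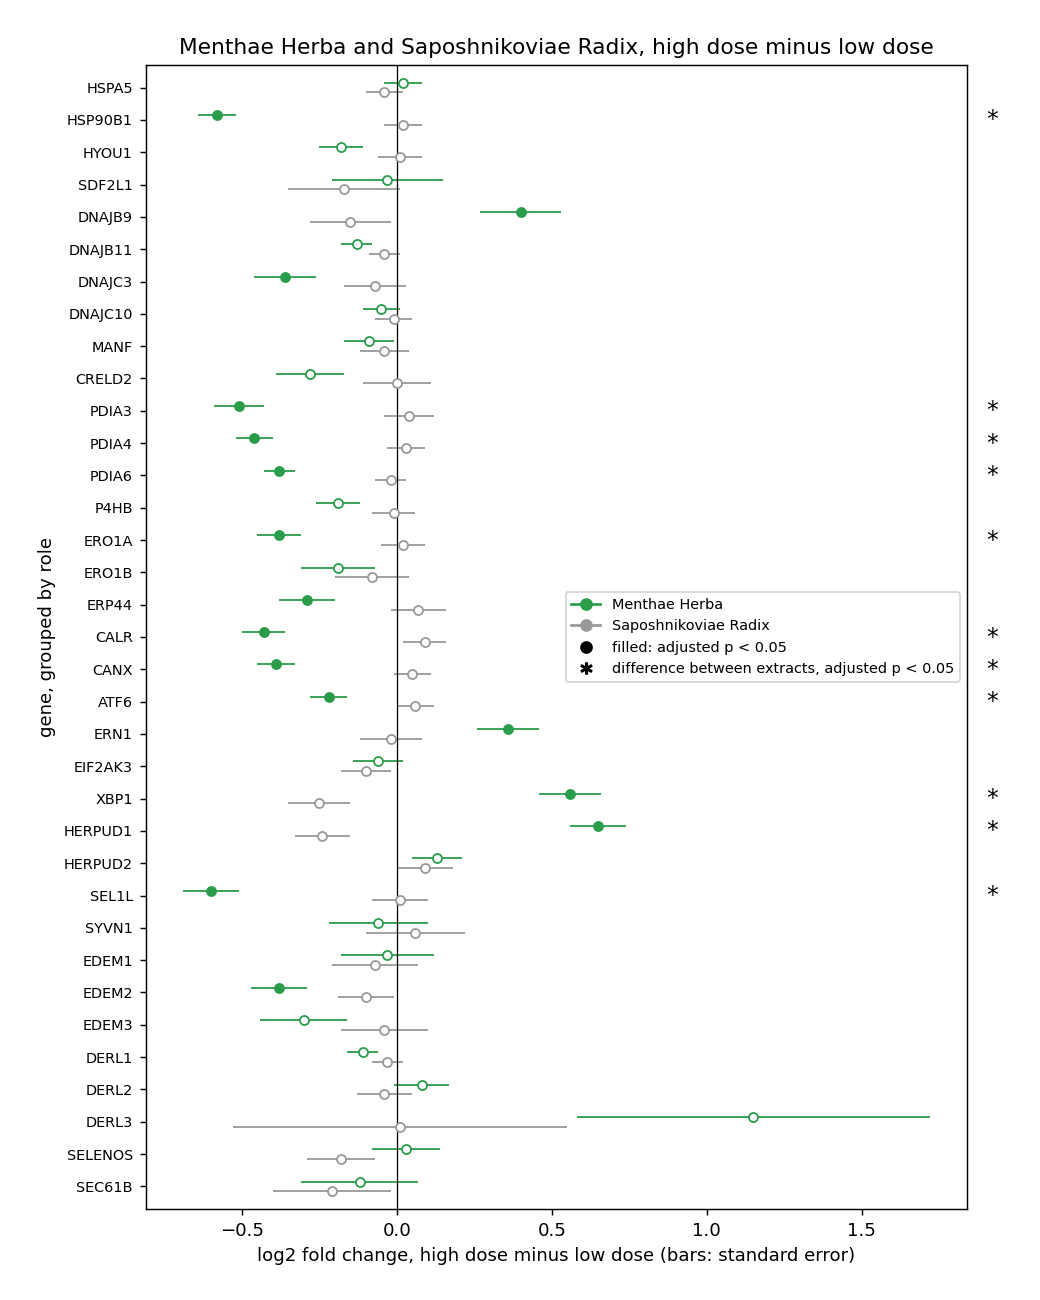
Log2 fold change of high against low dose for each gene (rows) with Menthae Herba (green) and Saposhnikoviae Radix (grey), with standard errors; filled points passed the test within an extract and asterisks mark the 11 genes whose change differed between extracts. HERPUD1 stood at 0.65 with Menthae Herba and -0.24 with Saposhnikoviae Radix, and HSPA5 near 0 with both.

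Aucklandiae Radix lowered XBP1 and a set of chaperones against its low dose, and no member passed as higher in this fit. XBP1 had 34.84 and 39.82 CPM at the high dose, against 55.91 and 58.12 CPM at the low dose, with 46.83 and 48.83 CPM at the medium dose in between. The log2 fold change was -0.61 (SE 0.12, adjusted p = 0.000144). HYOU1 had 65.2 and 64.61 CPM at the high dose, against 92.11 and 96.82 CPM at the low dose (-0.54, SE 0.09). CALR had 359.2 and 370.8 CPM, against 533.2 and 490.3 CPM (-0.49, SE 0.08).

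CRELD2 also fell with Aucklandiae Radix, by 0.54 (SE 0.14), as did PDIA4 by 0.34 (SE 0.08), MANF by 0.33 (SE 0.1), HSP90B1 by 0.31 (SE 0.07), PDIA6 by 0.24 (SE 0.07) and DNAJB11 by 0.22 (SE 0.06). CRELD2 lost its call without high-dose replicate 2 (adjusted p = 0.139). MANF, PDIA6 and DNAJB11 each lost theirs in 3 of 4 refits, without either high-dose library or without low-dose replicate 2, and the count was 5 without high-dose replicate 2. HSPA5 had 599.5 and 600.5 CPM at the high dose, against 611.2 and 616.5 CPM at the low dose (-0.03, SE 0.07, 95% interval -0.18 to 0.11). HERPUD1 differed by -0.01 (SE 0.11), SDF2L1 by -0.19 (SE 0.22) and DNAJB9 by 0.4 (SE 0.16, adjusted p = 0.0763).

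Members were called higher in some other fits: DNAJC10 (0.19) with the replicate block, DNAJC10 and DNAJB9 (0.4) with class as a term, and these and ERP44 (0.21) among class 1 libraries alone, where 13 passed, 3 higher and 10 lower. None of the 11 degradation genes passed for Aucklandiae Radix, against 18.3% of all genes. ATF6, ERN1 and EIF2AK3 did not pass either, at 0.08, 0.04 and 0.01. The medium dose called 0 members in edgeR, against 0.00544% of all genes; 2 had an unadjusted p under 0.05, and DESeq2 called 0. The epithelial marker sum was 4110 to 4210 CPM at the high dose and 6470 to 6500 CPM at the low dose, and the other markers' sum 14.8 to 16.4 CPM and 30.3 to 32.5 CPM; their part in the result was not tested. All libraries of this comparison are of class 1.

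The promoter motifs were set beside the changes from low to high dose. With Polygalae Radix the 11 members with ERSE or ERSE-II in their window had a median log2 fold change of -1.09 (9 lower). The 21 without had -0.32 (4 higher and 12 lower), and of all genes 27.9% were higher and 29.1% lower. With Aucklandiae Radix the medians were -0.24 (6 lower) and 0.08 (3 lower), against 9.01% and 9.25% of all genes. With Menthae Herba they were -0.19 (2 higher and 4 lower) and -0.12 (2 higher and 7 lower), against 5.95% and 9.37%. The 4 promoters printed above were chosen because their genes went different ways, so that they differ is no finding about the motif. HSPA5 and CALR fell with Polygalae Radix, while XBP1, also with ERSE, did not pass. HERPUD1, with ERSE-II, and XBP1 rose with Menthae Herba while CALR fell. These counts are descriptions, and no site was measured.

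Other genes of the secretory pathway were counted from lists that hold no member, beside 56.9% of all genes called with Polygalae Radix (29.1% lower), 15.3% with Menthae Herba (9.37% lower) and 18.3% with Aucklandiae Radix. With Polygalae Radix, 20 of 25 other ER folding genes fell and 1 rose (median log2 fold change -0.64), among those that fell UGGT1, the folding sensor of glycoproteins (-1.23), and the prolyl isomerase PPIB (-1.34). Of 24 genes of translocation and N-glycosylation 19 fell and 1 rose (median -0.74), and of 18 genes of transport between ER and Golgi 15 fell (median -0.6). The 19 other degradation genes were divided, with 4 higher, 9 lower and a median of 0.01. With Menthae Herba 9 of the 25 folding genes and 7 of the 24 translocation and glycosylation genes fell and none rose (medians -0.18 and -0.17). With Aucklandiae Radix 3 folding genes rose and 1 fell (median 0.04), and 2 translocation and glycosylation genes rose (median 0.06), both shares below that of all genes.

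The outputs of the PERK branch, many of them ATF4 targets, were counted likewise. The list is named after PERK, but PERK activity was not measured, and what moved these genes was not tested. With Menthae Herba 9 of 10 rose, against 5.95% of all genes (median 1.03). Among them were CHAC1, a glutathione-degrading enzyme (2.4, SE 0.16), DDIT3, the transcription factor CHOP (1.71, SE 0.14), and TRIB3, a pseudokinase (1.51, SE 0.1). With Polygalae Radix 5 rose and 5 fell, against 27.9% of all genes higher and 29.1% lower. ATF3 (1.5, SE 0.14) and DDIT3 (0.82, SE 0.17) rose, while ASNS, asparagine synthetase, fell by 3.17 (SE 0.09). With Aucklandiae Radix 3 rose and 1 fell, against 9.01% of all genes higher and 9.25% lower. Those that rose were DDIT3 (1.09, SE 0.17), ATF3 (0.82, SE 0.14) and SESN2 (0.74, SE 0.11). With Guibi-tang 3 rose and none fell (median 0.23; 2.86% of all genes called), and with Soyo-san 2 rose and none fell (median 0.22; 1.19%). With Saposhnikoviae Radix and Saengmaek-san 0 passed in edgeR (0.0707% of all genes with each), with 1 and 2 at an unadjusted p under 0.05. DESeq2 was not evaluated for these lists. The difference between Menthae Herba and Saposhnikoviae Radix passed for 7 of these 10, all positive, against 6.29% of all genes (1.83% positive). That between Guibi-tang and Saengmaek-san passed for 1, also positive, against 0.44% of all genes. Differences between other pairs of extracts were not tested.

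At the high against the low dose no member passed in edgeR for Saengmaek-san (0.0707% of all genes; 6 members at an unadjusted p under 0.05), Guibi-tang (2.86%; 0 members) or Soyo-san (1.19%; 2 members), and DESeq2 called 0 in each. The epithelial marker sum was 3890 to 4860 CPM at the high dose of Guibi-tang, against 5740 to 6750 CPM at its low dose, with no member called. SDF2L1 differed by -0.17, 0.02 and 0.3 with Saengmaek-san, Guibi-tang and Soyo-san, HERPUD1 by -0.11, 0.04 and 0.12, and DNAJB9 by -0.23, 0.14 and 0.14. XBP1 differed by -0.21, -0.03 and -0.07, and HSP90B1 by 0.08, -0.09 and 0.07. HSPA5 differed by -0.05 with Saengmaek-san, -0.02 with Guibi-tang and 0.03 with Soyo-san, with 95% intervals of -0.17 to 0.07, -0.14 to 0.1 and -0.11 to 0.18. The medium against the low dose gave 0 members for Saposhnikoviae Radix, Saengmaek-san, Guibi-tang and Soyo-san (0, 0, 0 and 0.0109% of all genes), with 0, 0, 2 and 2 members at an unadjusted p under 0.05 and 0 in DESeq2. The change with Guibi-tang minus that with Saengmaek-san, of the same library series, passed for 0 members in edgeR (0.44% of all genes; 1 at an unadjusted p under 0.05) and for 1 in DESeq2.

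Against vehicle, the high dose of Polygalae Radix called 27 members, 5 higher and 22 lower, against 59.5% of all genes (30% higher and 29.5% lower). HSPA5 differed by -1.88 (SE 0.07), CALR by -2.46 (SE 0.08) and ERN1 by 1.17 (SE 0.1), close to their values against the low dose. The vehicle group gives a different picture for SDF2L1, at -0.52 (SE 0.22), and SEC61B, at -0.61 (SE 0.23), since both were lower in vehicle than at the low dose. SDF2L1 lost this call without vehicle replicate 1 or 3 or high-dose replicate 2, and SEC61B without high-dose replicate 2. With class as a term 29 members passed, 26 of them also called without it in the same direction.

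The high dose of Menthae Herba against vehicle called 24 members, 7 higher and 17 lower, against 29.3% of all genes (14.5% higher and 14.9% lower). CANX (-0.67, SE 0.06), HSP90B1 (-0.66, SE 0.06), SEL1L (-0.73, SE 0.09) and PDIA3 (-0.61, SE 0.08) fell, and HERPUD1 (0.6, SE 0.09) and XBP1 (0.49, SE 0.1) rose. SDF2L1 had 18.76, 17.92 and 17.03 CPM, against 11.5, 10.44 and 10.72 CPM in vehicle (0.72, SE 0.18), but 18.8, 16.25 and 20 CPM at the low dose. SEC61B (0.51), DNAJB9 (0.47), SELENOS (0.44) and DERL2 (0.24) were also called higher. In 6 refits that left out 1 library, SEC61B kept its call in 0, DERL2 in 1, DNAJB9 in 5 and SELENOS in 6. With class as a term 20 members passed, 3 higher and 17 lower, and 16 of the 24 kept their call. SDF2L1 then had an adjusted p of 0.103, SEC61B of 0.622, SELENOS of 0.0526, DERL2 of 0.185 and DNAJB9 of 0.0769.

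For Aucklandiae Radix 14 members were called against vehicle, 6 higher and 8 lower, against 35.4% of all genes (18.3% higher and 17.1% lower). All Aucklandiae Radix libraries are of class 1 and all vehicle libraries of class 2. The class term here is therefore estimated from groups of other extracts that hold both classes. With class as a term 12 passed, 1 higher and 11 lower, and only 7 of the 14 kept their call. XBP1 (-0.63, SE 0.11), HYOU1 (-0.61, SE 0.08), CRELD2 (-0.47, SE 0.13), CALR (-0.45, SE 0.07) and HSP90B1 (-0.43, SE 0.07) fell. SEC61B (0.76), DNAJB9 (0.44), ERO1B (0.42), EDEM1 (0.4), SELENOS (0.37) and EDEM2 (0.27) were called higher, and with class as a term none of these 6 was: their adjusted p was 0.106, 0.128, 0.285, 1, 0.217 and 0.106. The count was 8 without high-dose replicate 3 and 9 without high-dose replicate 2. EDEM1 kept its call in 0 of 5 refits that left out 1 library, and EDEM2 in 2 of 5.

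Soyo-san, a formula whose libraries share class 2 with vehicle, called 13 members at its high dose against vehicle, 7 higher and 6 lower, against 28.4% of all genes (12.9% higher and 15.5% lower). SDF2L1 had 17.01 and 19.45 CPM, against 11.5, 10.44 and 10.72 CPM in vehicle (0.74, SE 0.2), and CRELD2 (0.54), MANF (0.44), P4HB (0.4), CALR (0.29), PDIA4 (0.19) and PDIA6 (0.17) were higher too. EDEM3, of the mannose-trimming family, had 26.59 and 28.15 CPM, against 48.26, 47.37 and 48.06 CPM in vehicle (-0.81, SE 0.16). SEL1L (-0.51), EIF2AK3 (-0.29), DNAJC10 (-0.29), CANX (-0.28) and ERO1A (-0.21) were the others called lower. At the low dose EDEM3 was already at 32.81 and 39.83 CPM, and no member passed between the high and the low dose. EDEM3 was also low in class 2 libraries of other extracts, such as 32.6, 36.6 and 34.96 CPM in replicate 3 of Saengmaek-san, from high to low dose. Of the class 2 libraries outside vehicle, only Saposhnikoviae Radix high-dose replicate 2, at 49.12 CPM, was not below the vehicle range. With class as a term 18 members passed, 10 higher and 8 lower. The count was 6 without high-dose replicate 2, and the calls of SDF2L1, CRELD2, CALR, PDIA4, PDIA6, ERO1A and EIF2AK3 were lost in at least 1 refit. PDIA4 kept its call in 0 of 5 refits and ERO1A in 1 of 5.

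Against vehicle, MANF and CALR were called higher with Saengmaek-san (3.6% of all genes called, 1.87% higher and 1.73% lower). With Guibi-tang MANF alone was called higher (9.33%, 4.38% higher and 4.95% lower). MANF had 51.07, 39.6 and 43.71 CPM with Saengmaek-san, against 35.09, 34.99 and 32.3 CPM in vehicle (0.39, SE 0.08, adjusted p = 0.00339), but 36.18, 40.32 and 43.26 CPM at its low dose. With Guibi-tang MANF had 41.16, 40.01 and 45.56 CPM (0.31, SE 0.08, adjusted p = 0.00808), a call lost without vehicle replicate 3 or high-dose replicate 3. At the Guibi-tang low dose it had 38.64, 37.25 and 39.79 CPM. Every low-dose library of every extract had more MANF than any vehicle library, so these calls cannot be told apart from a low level in the vehicle series. CALR had 638.9, 515 and 608.3 CPM with Saengmaek-san, against 495.8, 512.4 and 491.1 CPM in vehicle (0.23, SE 0.07), and kept its call in 1 of 6 refits. With class as a term Saengmaek-san called 11 members, 6 higher and 5 lower, and Guibi-tang 2. The share of all genes called with class as a term was not counted, so these counts have no share to be read against. Saposhnikoviae Radix called 0 members in edgeR (0.902% of all genes), with 2 at an unadjusted p under 0.05, 0 in DESeq2 and 0 with class as a term.

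Okbyeongpung-san has 1 library at each dose and was not tested. Its log2 ratios to the vehicle mean had a median of 0.07 over the members at the low dose, -0.01 at the medium dose and 0.07 at the high dose. The medians over all genes tested were 0.03, 0.03 and 0.02. At the high dose 17 members lay above the vehicle range, 10 below it and 8 within it. That range rests on 3 libraries of another series. How many of all genes lay outside it was not counted, so these counts have no share to be read against. HSPA5 had 668.6, 749.1 and 676.7 CPM from low to high dose, and CRELD2 16.9, 20.14 and 14.93 CPM, against 10.76 to 12.74 CPM in vehicle. HERPUD1 had 38.53, 37.14 and 36.22 CPM, XBP1 65.75, 66.01 and 59.47 CPM, SDF2L1 15.98, 16.26 and 13.3 CPM, DNAJB9 8.937, 8.672 and 8.659 CPM, and HSP90B1 954.7, 1082 and 957.7 CPM. EDEM3 had 37, 33.32 and 38.08 CPM, below its vehicle range of 47.37 to 48.26 CPM at each dose.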

How the data were processed

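Gene-level RNA sequencing of 60 A549 libraries was analysed. The deposited values are expected counts from RSEM 1.3.3, with FastQC 0.11.9, Trim Galore 0.6.5 and STAR 2.7.3a also named, on GRCh38 (hg38), per the submitters' processing notes; no source used here names the annotation release. Libraries were stranded, per the labels' protocols. Of the expected counts deposited, 9.953% had decimals, and all were rounded to whole numbers.

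Groups follow the labels. A single edgeR 4.0.16 quasi-likelihood fit (R 4.3.3, limma 3.58.1; TMM, filterByExpr, robust, two-sided) covered the 57 libraries of 22 groups with 2 or 3 libraries, with 35 residual degrees of freedom and 23 comparisons; p-values were Benjamini-Hochberg adjusted over the 18396 genes tested, with a threshold of 0.05. Standard errors are the absolute log2 fold change over the root of F. Okbyeongpung-san was compared as log2 CPM with a prior count of 2. The fit was tested on simulated data. Alternatives were DESeq2 1.42.0 (size factors and Wald test), no filter, a replicate block, library class as a term or within class, and each library left out. No label says whether a replicate number marks a shared culture or day. Same-numbered libraries deviated together, with every correlation above 0.1, in 2 of 12 comparisons with 3 pairs: medium against low dose of Saengmaek-san (0.252, 0.273 and 0.508) and of Guibi-tang (0.205, 0.138 and 0.449), where they also share a library class; no member was called there with or without the replicate block. Gene positions and exon lengths are from GENCODE.

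The members and lists were chosen with earlier results of these data known. HSPA5, HSP90B1, SDF2L1, HERPUD1, DNAJB9 and XBP1 were named in every extract, then up to 6 members higher and 6 lower with the largest change per comparison; further members were named by role after their values were seen. Of each other list at most 3 genes were named. Library depth limits the precision of low genes such as DERL3.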

Additional observations from a re-analysis of the deposited data

Results flagged for a closer look

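The change from low to high dose differed between Menthae Herba and Saposhnikoviae Radix for 11 members, against 6.29% of all genes. That was by a test of the difference itself (edgeR's quasi-likelihood test, adjusted over all genes tested). Positive differences on the log2 scale were found for HERPUD1 (0.89) and XBP1 (0.81). Negative differences were found for SEL1L (-0.61), HSP90B1 (-0.6), PDIA3 (-0.55), CALR (-0.52), PDIA4 (-0.49), CANX (-0.45), ERO1A (-0.4), PDIA6 (-0.35) and ATF6 (-0.29). ATF6 kept its call in 3 of 12 refits that left out 1 library, and ERO1A in 11 of 12. With library class as a term 12 members passed, and within class 1 also 12. Within class 1 ATF6 was not among them (edgeR's test, adjusted p = 0.0721). The share of all genes called in these fits was not counted.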

How the results depend on the processing

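Counts of members called moved by over 1.5 times in few settings. Without the filter on low counts they were 2 for Saposhnikoviae Radix, 1 for Saengmaek-san and 5 for Guibi-tang against vehicle, and 1 for Soyo-san high against low. The DESeq2 Wald test called 4 for Saengmaek-san against vehicle and 1 for Guibi-tang minus Saengmaek-san. Library class as a term gave 11 for Saengmaek-san and 2 for Guibi-tang against vehicle, 1 for Soyo-san high against low and 1 for Guibi-tang minus Saengmaek-san; within class 2, Saengmaek-san had 11 and Soyo-san high against low 2. With the replicate block, Soyo-san high against low had 2 (SEL1L and EDEM3, both lower) and Guibi-tang minus Saengmaek-san 1, and the call of DNAJC3 with Polygalae Radix against vehicle was lost (adjusted p = 0.0625); the lowest same-number correlation between groups of 2 was -0.0305. EDEM1 with Aucklandiae Radix against vehicle was 0 with class as a term (adjusted p = 1), against 0.4 without it. The cause was not tested.

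With each library left out in turn, counts against vehicle ranged from 23 to 27 (Polygalae Radix), 8 to 14 (Aucklandiae Radix), 20 to 22 (Menthae Herba), 1 to 3 (Saengmaek-san), 0 to 1 (Guibi-tang) and 6 to 12 (Soyo-san). High against low they ranged from 25 to 28, 5 to 10 and 13 to 17 for Polygalae Radix, Aucklandiae Radix and Menthae Herba, and 0 to 1 for Saengmaek-san. Polygalae Radix medium against low ranged from 4 to 14, Menthae Herba minus Saposhnikoviae Radix from 10 to 12 and Guibi-tang minus Saengmaek-san from 0 to 1. Of 836 member values so recomputed, 121 lost their call and 0 reversed.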
